A study of Mus musculus with 6 samples.

Results

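The transcripts of 5 genes that store, release, export and sense iron were compared between splenic erythroid cells with and without Nrf2 in mice with sickle cell disease. The genes were picked by symbol from the table of read counts. They were the ferritin heavy chain Fth1, the ferritin light chain Ftl1, the ferritinophagy receptor Ncoa4, the iron exporter ferroportin Slc40a1 and the iron-sensing ubiquitin ligase subunit Fbxl5. Each had 1 row among 35178 gene symbols, and all 5 were among the 13721 genes with enough reads to be tested. The cells were Ter119+ cells of the spleen, Ter119 being a surface marker of erythroid cells. They came from mice of 2 to 3 months on a mixed B6;129P2 background. Both groups carried sickle cell disease. The 3 libraries of the first group were wild type for Nrf2 (WT), and the 3 of the second were Nrf2 knockout (KO). The labels name neither the sickle model nor the deleted part of the Nrf2 gene, and they do not state that libraries are from different animals.

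Ferritin is a hollow protein shell built from heavy and light chains that holds iron in a mineral form. The heavy chain oxidises iron so that it can enter, and the light chain helps the mineral form. Ncoa4 binds the heavy chain and carries ferritin to the lysosome, a form of autophagy called ferritinophagy that frees the iron again, in erythroid cells largely for heme. Ferroportin takes iron out of the cell. Fbxl5 is stable when iron is plentiful and then leads the iron regulatory protein Ireb2 to the proteasome. When iron is short, the iron regulatory proteins Aco1 and Ireb2 bind a hairpin called the iron-responsive element (IRE) in target mRNAs. An IRE before the start codon then blocks translation, so a transcript level does not read that control. Nrf2, encoded by Nfe2l2, is known to drive Fth1, Ftl1 and Slc40a1 in other cells, and iron freed from ferritin is a known driver of ferroptosis, the form of cell death in the title of the series.

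Levels are in CPM, the reads of a gene relative to the library size, which was scaled with TMM. A change is log2 of KO over WT by edgeR. Its standard error (SE) was derived from the change and the F statistic of edgeR, and the 95% intervals were built from that SE. An adjusted p (Benjamini-Hochberg over the 13721 genes) under 0.05 counted as a call. The libraries held 16364199 to 21712608 reads. The 5 genes together took 0.706% to 0.989% of the reads in WT and 0.349% to 0.694% in KO. As a check of the labels, Nfe2l2 reads were still present in KO (69.6 ± 6.75 CPM, SD, n = 3, against 81.6 ± 14.9 in WT), while the Nrf2 target Nqo1, at 62 ± 17 CPM in WT, fell by 2.09 on the log2 scale to 14.6 ± 3.4 in KO (SE 0.223, edgeR adjusted p = 0.0301). Xist, a transcript of the inactive X of females, was found at 784 to 1169 CPM in WT and at 917 CPM in KO replicate 3, but only at 15.8 CPM in KO replicate 1 and 0.702 CPM in KO replicate 2. Genes of the Y chromosome summed to 212 and 271 CPM in those 2 libraries and to at most 4.64 CPM in the other 4. KO replicate 3 is therefore also given alone against WT. That value comes from a fit of WT, KO replicates 1 and 2, and KO replicate 3 as separate groups, so the single library is assumed to vary like the other libraries.

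The storage, release and export genes were lower in KO and Fbxl5 was higher. The means of Fth1, Ftl1, Ncoa4 and Slc40a1 stood at log2 changes of -0.69 to -0.98, and Fbxl5 at 0.28. None of these 5 differences was a call by edgeR, which called 0.0219% of all genes lower and 0% higher. At an unadjusted p under 0.05, Fth1, Ncoa4 and Slc40a1 were lower, 3 of 5, where 5.98% of all genes were lower and 6.25% higher at that p. DESeq2, an alternative test, called the same 3 genes lower (adjusted p = 0.0036 for Fth1, 0.000382 for Ncoa4 and 0.0192 for Slc40a1), where it called 3.6% of the 8134 genes it adjusted lower and 1.13% higher. The limma-voom test called 0 of the 5. All KO libraries lay below all WT libraries for 3 of the 5, where 7.91% of all genes did so. They lay above for Fbxl5, where 10.3% of all genes did so. By library totals in place of TMM, edgeR called 9 genes of the whole table lower and 24 higher, against 3 and 0, with none of the 5 among them.

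**Figure D1:**
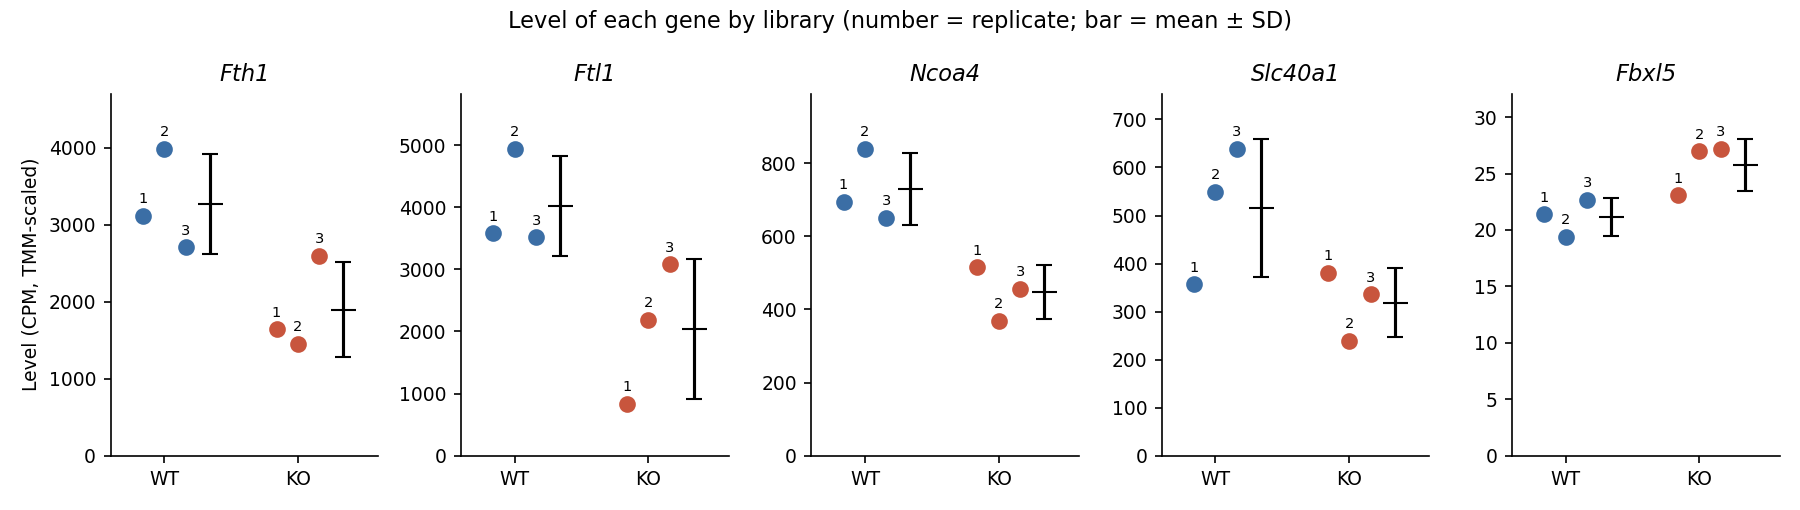
Each panel gives 1 gene, with its level in CPM on the vertical axis from 0 and the WT (blue) and KO (red) libraries side by side; numbers are replicates and the black bar is the mean ± SD (n = 3). KO libraries lie below WT libraries for Fth1, Ftl1 and Ncoa4 and above them for Fbxl5, and the groups overlap for Slc40a1.

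The IREs of the storage and export genes are shown because they are a feature these members share. The first 300 bases of the coding transcripts in GENCODE M21 (mouse build GRCm38, the same as mm10) were searched on the transcript strand for a C, any 5 bases and the loop CAGTGN, with those 5 bases able to pair with the 5 bases after the loop. Of 21740 genes, 29 held such a site (0.133%), while the letters alone were held by 15.4%. Fth1, Ftl1 and Slc40a1 held it before the start codon, Slc40a1 in its 1 coding transcript of this annotation. Reads are counted per gene symbol, so the transcripts that gave them are not known. Ncoa4 and Fbxl5 held the letters without 5 pairs. In the 30-base sites below, capitals mark the bulged C and the loop.
Fth1: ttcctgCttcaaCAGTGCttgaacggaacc
Ftl1: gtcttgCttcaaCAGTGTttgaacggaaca
Slc40a1: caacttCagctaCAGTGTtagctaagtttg
The Fth1 site lies at chr19:9982732-9982761 on the plus strand, the Ftl1 site at chr7:45459778-45459807 on the minus strand and the Slc40a1 site at chr1:45925464-45925493 on the minus strand (GRCm38). Among other mRNAs known to carry an IRE before the start codon, Alas2 also held such a site, and the Epas1 transcript held the letters without 5 pairs.

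Fth1 encodes the chain that oxidises iron. The gene lies on chromosome 19 from 9980598 to 9985098 (GRCm38). Its level was 3118, 3988 and 2710.3 CPM in WT replicates 1, 2 and 3, and 1640, 1456 and 2599 CPM in KO replicates 1, 2 and 3. Every KO library lay below every WT library, but KO replicate 3 came close to WT replicate 3. The means were 3272 ± 653 and 1898 ± 613 CPM (SD, n = 3 each). The change was a log2 of -0.79 (SE 0.232, 95% interval -1.32 to -0.25, adjusted p = 0.246 by edgeR), and 3.47% of all genes had a more negative one. Taking KO replicate 3, with Xist at the level of WT, as the single KO library gave -0.33 (adjusted p = 0.712 by edgeR), and without KO replicate 3 it was -1.09 (adjusted p = 0.0713). The part of sex in this was not tested.

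Ftl1, the light chain, lies on chromosome 7 from 45457944 to 45459884. It stood at 3584, 4941 and 3516 CPM in WT replicates 1, 2 and 3 while KO replicates 1, 2 and 3 had 836, 2191 and 3084 CPM. No KO library reached the WT range, and the KO libraries were spread much more widely than the WT libraries. The means were 4014 ± 804 and 2037 ± 1132 CPM. With this spread the log2 change of -0.98 had an SE of 0.506 and a 95% interval of -2.29 to 0.33 (adjusted p = 0.53 by edgeR). It was -0.63 once KO replicate 1 was left out. With KO replicate 3 as the single KO library it was -0.38, and the part of sex was not tested.

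Near-identical copies of the light chain have rows of their own, and the share of each row differed between libraries. The table has a row Ftl2, which RefSeq lists as an older name of the processed pseudogene Ftl2-ps on chromosome 4, and a row Gm10116, an older name of the pseudogene Ftl1-ps1. In GENCODE M21 the annotated Ftl2-ps matched Ftl1 at 98.7% of 552 bases, with 7 mismatches and 0 gaps, and Ftl1-ps1 at 99.6% of 910 bases, with 4 mismatches. The 50-base stretch in which Ftl1 and Ftl2-ps differ most shows how few bases can tell them apart. Capitals mark the 4 positions that differ.
Ftl1: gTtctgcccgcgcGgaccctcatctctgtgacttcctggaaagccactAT
Ftl2-ps: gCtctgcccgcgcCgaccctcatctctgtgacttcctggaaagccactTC
Of the 894 windows of 75 bases in the Ftl1 transcript, 232 (26.0%) also occur in Ftl2-ps and 590 (66.0%) in Ftl1-ps1. The length of 75 is only an example, since the read length is not given in the sources used here. A read that fits several copies equally well cannot be placed by sequence.

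The Ftl2 row, singled out after its values were seen, held 14287, 571 and 9534 reads in WT replicates 1, 2 and 3 and 20374, 14567 and 9738 in KO replicates 1, 2 and 3. It was highest in KO replicate 1, where Ftl1 was lowest, and lowest in WT replicate 2, where Ftl1 was highest. The Gm10116 row held 27 to 165 reads. Ftl1 made up 84.0%, 99.1% and 85.5% of the reads of these 3 rows in WT replicates 1, 2 and 3 and 42.1%, 76.9% and 84.6% in KO replicates 1, 2 and 3. Summed into 1 row, a choice made after seeing the data, they stood at 4268, 4987 and 4110.3 CPM in WT and at 1983, 2849 and 3647 CPM in KO. The groups still did not overlap, and the spread was smaller than for Ftl1 alone. The log2 change of the sum was -0.66 (SE 0.197, 95% interval -1.10 to -0.22, adjusted p = 0.233 by edgeR). The background of these mice mixes strains, and whether strain sequence moves reads between the rows was not tested. For the heavy chain, the rows Fth-ps2, Fthl17 and Ftmt held 6, 0 and 0 reads over all libraries, and copies of Fth1 under other names were not searched for.

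**Figure D2:**
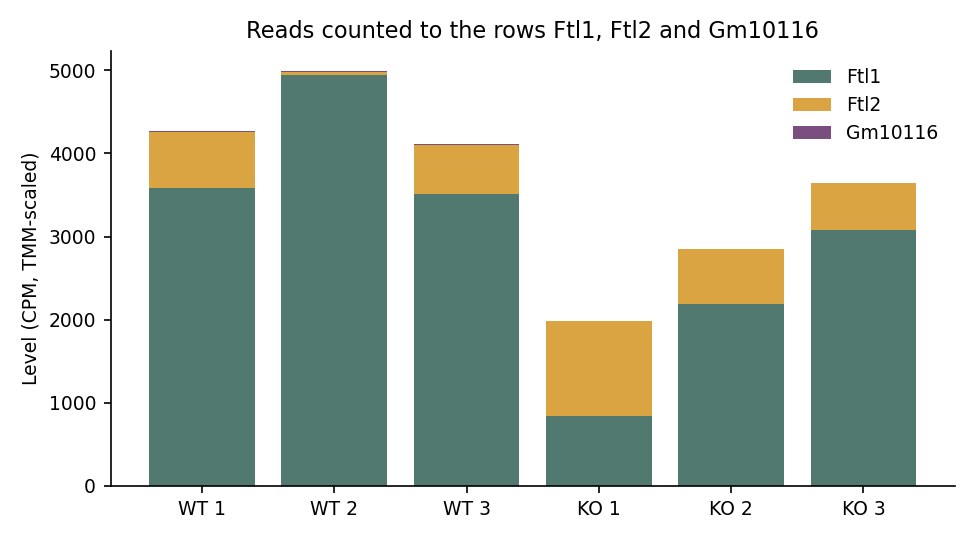
Stacked bars give the level in CPM (vertical axis, from 0) of the rows Ftl1, Ftl2 and Gm10116 in each library. The Ftl2 part is 57.8% of the reads in KO replicate 1 and 0.718% in WT replicate 2, and the whole bar is 1983 to 3647 CPM in KO against 4110.3 to 4987 CPM in WT.

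The balance of the chains was read as a ratio within each library, which does not move with scaling. Reads of Fth1 per read of Ftl1 were 0.87, 0.807 and 0.771 in WT replicates 1, 2 and 3 and 1.96, 0.665 and 0.843 in KO replicates 1, 2 and 3. KO replicate 1 alone stood above 1, and the other KO libraries were within or below the WT range. Against the summed light chain rows the ratio was 0.659 to 0.8 in WT and 0.511 to 0.827 in KO. The difference in mean log2 ratio was 0.34 against Ftl1 (exact two-sided permutation p = 0.8, where 3 against 3 cannot give less than 0.1). It turned to -0.12 against the summed rows and, with Ftl1, to -0.12 without KO replicate 1.

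Ncoa4 had the smallest p of the 5. The gene is on chromosome 14 from 32159865 to 32179855. Its level was 695, 839.5 and 651 CPM in WT replicates 1, 2 and 3 and 516, 369 and 457 CPM in KO replicates 1, 2 and 3. The highest KO library was below the lowest WT library. The means were 728 ± 98.7 and 447 ± 73.9 CPM (log2 -0.70, SE 0.144, 95% interval -1.02 to -0.39, unadjusted p = 0.000481 and adjusted p = 0.114 by edgeR). For KO replicate 3 alone the log2 change was -0.67 (adjusted p = 0.576), close to that of all libraries. The call depended on the test and the filter, since edgeR with no filter on low counts called it (log2 -0.71, adjusted p = 0.000459). A pseudogene of Ncoa4, in the table as Gm6768, held 49 to 92 reads against 7971 to 14640 in the Ncoa4 row.

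Reads of Ncoa4 per read of Fth1, the chain it binds, were 0.223, 0.21 and 0.24 in WT replicates 1, 2 and 3 and 0.315, 0.254 and 0.176 in KO replicates 1, 2 and 3. The KO libraries lay on both sides of the WT range. The mean log2 ratio differed by 0.11 (exact two-sided permutation p = 0.7, adjusted p = 0.9 over the 3 ratios compared) and by -0.35 for KO replicate 3 alone.

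The RefSeq promoter table (GRCm38.p6, 250 bases before to 50 after a start) held 6 windows for Fth1, Ftl1 and Ncoa4. They were searched on both strands for TGACNNNGC, the core letters of the antioxidant response element that Nrf2 binds. It was found in 1 window, at a start of Ncoa4 within the gene, and in 12.4% of all 32851 windows. The stretch is shown with the match in capitals.
Ncoa4: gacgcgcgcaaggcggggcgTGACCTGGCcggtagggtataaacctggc
It covers chr14:32165725-32165773 on the plus strand. Elements outside these windows were not searched.

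Slc40a1 encodes ferroportin, which erythroblasts carry and which iron-recycling macrophages of the spleen carry in abundance. It lies on chromosome 1 from 45908068 to 45926523. The level was 357, 549 and 639 CPM in WT replicates 1, 2 and 3 and 380.4, 239 and 336 CPM in KO replicates 1, 2 and 3. The groups overlapped, since WT replicate 1 lay below KO replicate 1. The means were 515 ± 144 and 318 ± 72.4 CPM (log2 -0.69, SE 0.243, 95% interval -1.26 to -0.13, adjusted p = 0.327 by edgeR). The log2 change was -0.90 with WT replicate 1 left out and -0.51 with WT replicate 3 left out. It was -0.62 with KO replicate 3 as the single KO library. Against the transferrin receptor Tfrc, the route of iron into the cell, there were 0.128 to 0.225 reads of Slc40a1 per read of Tfrc in WT and 0.168 to 0.196 in KO, a difference in mean log2 ratio of 0.07 (exact two-sided permutation p = 0.9). Without WT replicate 1 that difference was -0.13.

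Markers of splenic macrophages did not move down with Slc40a1. Of 20 listed, 19 were in the table and tested, of which 2 stood lower in KO. Their median log2 change was 0.24, where that of all genes was 0.02. At an unadjusted p under 0.05, 1 of them was lower and 2 were higher, where 5.98% of all genes were lower and 6.25% higher. The summed level of these markers was 2113 to 2336 CPM in WT and 2316 to 3167 CPM in KO, so macrophage transcripts were present in both groups. Of the 3167 CPM in KO replicate 1, Marco alone held 391 CPM. KO replicate 3 summed to 2718 CPM, also above all WT libraries, with Marco at 11.3 CPM. Vcam1, C1qa, Cd5l and Spic were all above 0, at 417 to 615, 133 to 222, 187 to 372 and 54.7 to 100.1 CPM, each with a higher mean in KO. Cd163 and Itgam had lower means in KO, 29.2 and 11.4 CPM against 41.4 and 13.1 in WT. The cells that gave the Slc40a1 reads cannot be told from bulk RNA. Erythroid markers were lower along with the members. Of 16 listed, 15 were in the table and 12 were tested, and those 12 were lower in KO (median log2 -0.40, 0 called by edgeR, 9 at an unadjusted p under 0.05), and their sum was 34529 to 35154 CPM in WT and 24135 to 25908 CPM in KO. The mouse beta globin rows Hbb-bs and Hbb-bt held at most 0.45 CPM in any library. Of the other cell types listed, B cell markers summed to 254 to 741 CPM in WT and 323 to 418 CPM in KO (9 of 9 lower), neutrophil markers to 342 to 1013 and 497 to 674 (8 of 10 lower), and platelet markers to 204 to 411 and 207 to 243 (9 of 9 lower). T and NK cell markers summed to at most 52.8 CPM in any library (5 of 9 lower), and edgeR called 0 markers of any list. In bulk RNA, fewer cells of a type and less RNA per cell cannot be told apart, and the part of cell composition in the members' changes was not tested.

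**Figure D3:**
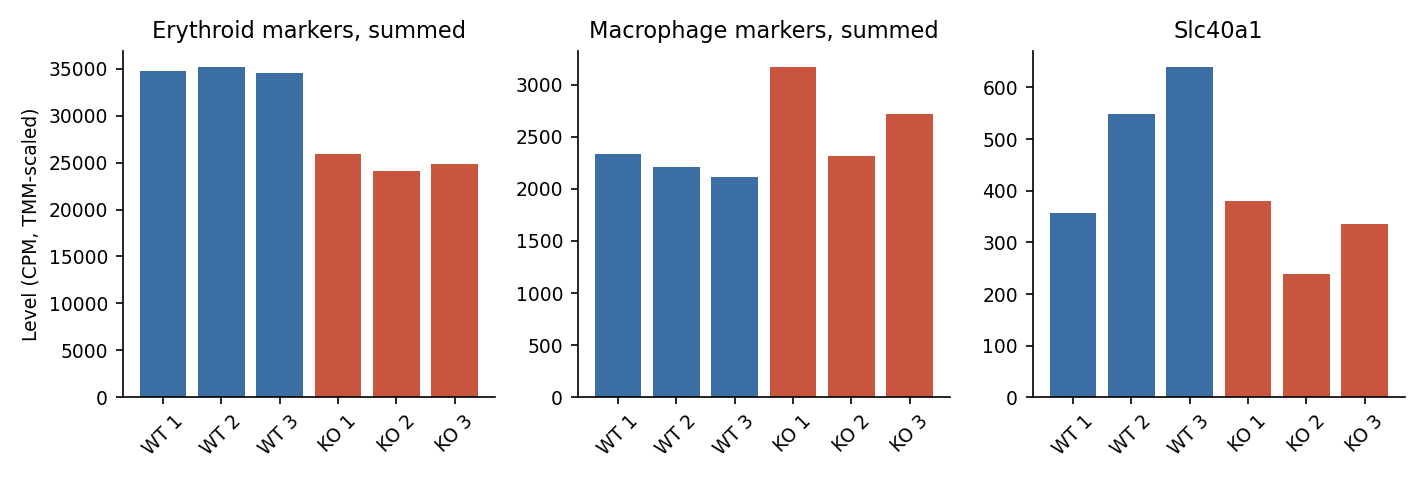
Bars give CPM from 0 in each library for the summed erythroid markers, the summed macrophage markers and Slc40a1, with WT in blue and KO in red. Erythroid markers are lower in all KO libraries, and Slc40a1 is highest in WT replicate 3. The macrophage sum is 3167 CPM in KO replicate 1, with 391 CPM of it Marco alone, and 2718 CPM in KO replicate 3. Both are above all WT libraries, while KO replicate 2, at 2316 CPM, is within the WT range.

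Fbxl5, the substrate receptor of a ubiquitin ligase, went the other way. The gene is on chromosome 5 from 43744615 to 43821638, and its row had 310 to 601 reads. Its level was 21.4, 19.4 and 22.7 CPM in WT replicates 1, 2 and 3 and 23.1, 27.0 and 27.2 CPM in KO replicates 1, 2 and 3. All KO libraries were above all WT libraries, by little for KO replicate 1. The means were 21.2 ± 1.63 and 25.8 ± 2.29 CPM (log2 0.28, SE 0.142, 95% interval -0.03 to 0.59, adjusted p = 0.459 by edgeR). KO replicate 3 alone gave 0.36. Its client Ireb2 averaged 88.2 ± 7.48 CPM over WT and 91 ± 10.9 over KO (log2 0.05, adjusted p = 0.917 by edgeR).

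Levels between the genes were compared per 1000 bases of merged coding-transcript exons (GENCODE M21). Ftl1 had 4146 ± 830.1 CPM per kilobase in WT and 2104 ± 1169 in KO. Fth1 had 2100.2 ± 419 and 1218 ± 394 over 1558 bases, or 3522 ± 703 and 2043 ± 660.3 over the 929 bases of a shorter transcript. The Ftl1 row was above Fth1 by either length in every library except KO replicate 1. In that library it held only 42.1% of the reads of the 3 light chain rows. Next came Ncoa4 with 178 ± 24.1 and 109 ± 18, then Slc40a1 with 153 ± 42.7 and 94.5 ± 21.5, a neighbour within 1 SD of the WT libraries. Fbxl5 was far below them with 3.83 ± 0.294 and 4.66 ± 0.414 CPM per kilobase.

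**Figure D4:**
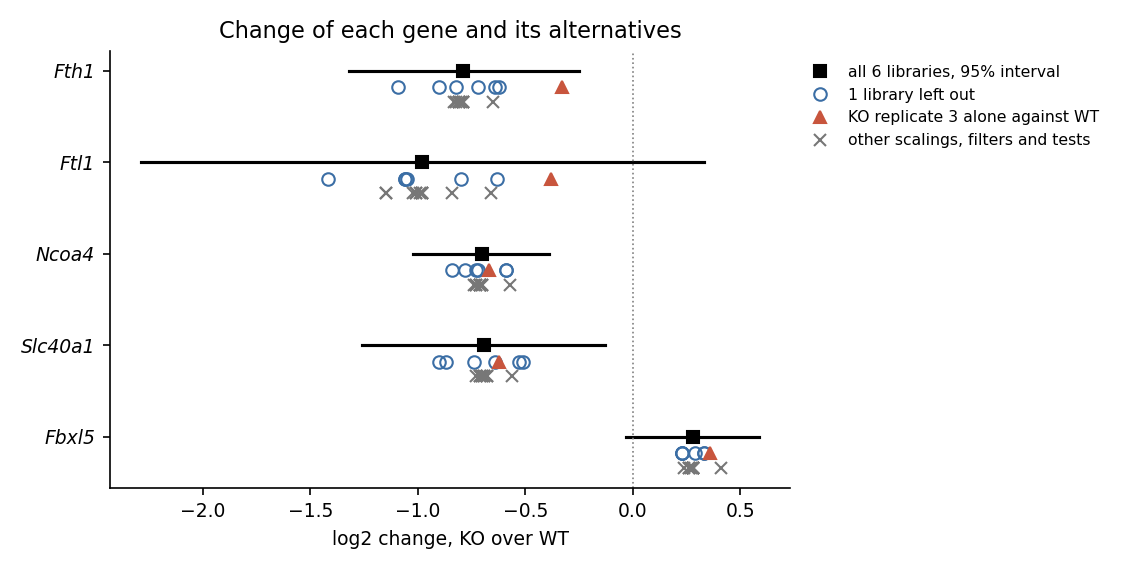
The horizontal axis is the log2 change of KO over WT. Black squares with lines are edgeR estimates from all 6 libraries with 95% intervals, circles leave out 1 library, triangles are KO replicate 3 alone against WT and crosses are other scalings, filters, tests and the summed light chain rows. Estimates of Fth1, Ftl1, Ncoa4 and Slc40a1 stay below 0 and those of Fbxl5 above it, with Ftl1 reaching from -1.42 to -0.38.

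Other genes of the pathway were counted in 6 lists that share some genes. By edgeR 0 genes in any list were called in either direction. Of 16 tested genes of iron uptake and iron within the cell, 10 were lower (median log2 -0.14), and at an unadjusted p under 0.05 there were 6 lower and 1 higher, where 5.98% of all genes were lower and 6.25% higher. Those with the smallest p were the iron chaperone Pcbp1 (log2 -0.72, adjusted p = 0.0906 by edgeR), which delivers iron to ferritin, Tfrc (log2 -0.74, adjusted p = 0.0982) and Abcb10 (log2 -0.61). The mitochondrial iron importer Slc25a37, the most abundant, averaged 5045 ± 124 CPM over WT and 3027 ± 832 over KO.

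In the list of ferritinophagy machinery, the autophagy genes that Ncoa4 works with, 16 of 23 were lower (median log2 -0.21). At an unadjusted p under 0.05, 7 were lower and 0 higher, where 5.98% of all genes were lower and 6.25% higher. For 10 of the 23 all KO libraries lay below all WT libraries, where 7.91% of all genes did so. Those with the smallest p were Gabarapl2 (log2 -0.52), Atg14 (log2 -0.46) and Lamp2 (log2 -0.61, with overlapping groups), and the autophagy receptor Tax1bp1 was at a log2 of -0.30. Heme degradation and export had 6 of 7 lower (median log2 -0.63), with 5 lower and 1 higher at that p. Abcg2 (log2 -0.68), Blvrb (log2 -0.63) and the heme oxygenase Hmox2 (log2 -0.80) had the smallest p there.

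In iron sensing and systemic control 7 of 12 were lower (median log2 -0.10), with 2 lower and 0 higher at an unadjusted p under 0.05: Hif1a, with means of 31 ± 9.8 CPM over WT and 10.6 ± 1.09 over KO (log2 -1.54, adjusted p = 0.0528 by edgeR), and the iron regulatory protein Aco1 (log2 -0.81, adjusted p = 0.225 by edgeR). In the Fbxl5 ligase list 6 of 13 were lower (median log2 0.03), and Aco1 was the single gene at that p, while the scaffold Cul1 (log2 0.11) and its exchange factor Cand1 (log2 0.16) were not. Among 6 other mRNAs with an IRE, 5 were lower (median log2 -0.48), with 3 lower and 0 higher at that p. Alas2 (log2 -0.80, adjusted p = 0.0906 by edgeR) carries its IRE before the start codon, and Tfrc (log2 -0.74) and the iron importer Slc11a2 (log2 -0.89) carry theirs after the stop codon. The median of all genes tested was 0.02, and 5.98% of them were lower and 6.25% higher at an unadjusted p under 0.05. By library totals, which put that median at 0.15, the list medians were 0 for iron uptake (8 of 16 lower), 0.02 for iron sensing (6 of 12) and 0.15 for the Fbxl5 ligase (2 of 13). Those of ferritinophagy machinery (-0.08, 14 of 23), heme degradation and export (-0.50, 6 of 7) and other IRE mRNAs (-0.34, 5 of 6) were still below 0. With KO replicate 3 as the single KO library, the median of all genes was 0.03. The list medians were then -0.23 for iron uptake, -0.03 for iron sensing and -0.04 for the Fbxl5 ligase. They were -0.34 for ferritinophagy machinery, -0.34 for heme degradation and export and -0.27 for other IRE mRNAs. The part of sex in this was not tested.

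**Figure D5:**
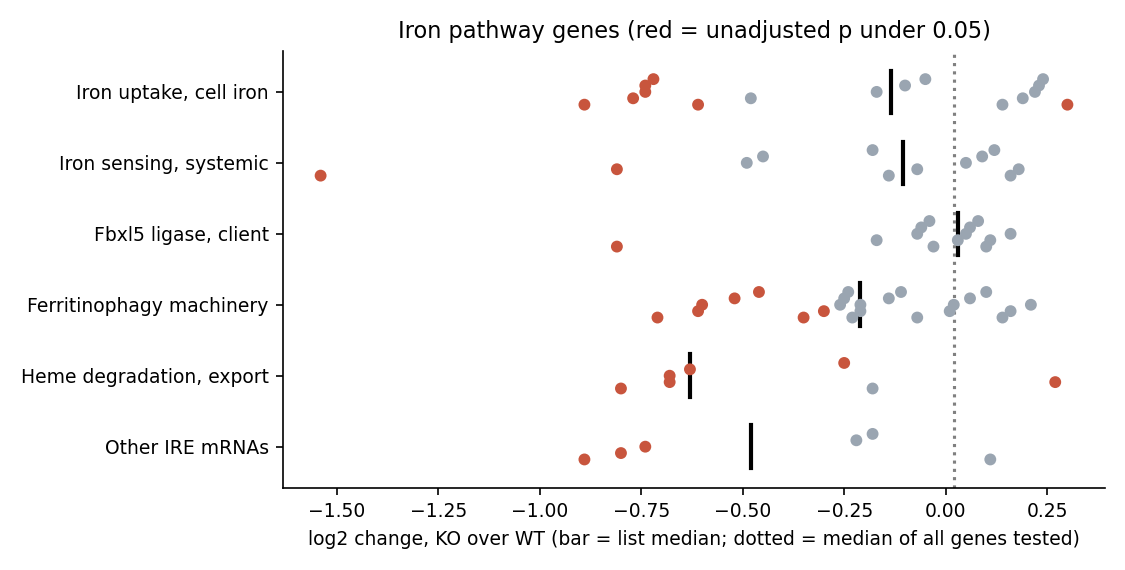
Each point is a tested gene of 1 of the 6 iron lists at its log2 change of KO over WT; red points have an unadjusted p under 0.05, black bars are list medians and the dotted line is the median of all genes, 0.02. Heme degradation and export has the lowest median, -0.63, and the Fbxl5 ligase list lies around 0.

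Over the 6 libraries, the genes whose log2 CPM followed each member most closely were sought among 4817 genes whose average log2 CPM reached 5. Libraries of 1 group share genotype and the search took the best of many genes, so these values are descriptions. KO replicates 1 and 2 also differ from the other libraries in Xist and Y genes. The part of sex in these likenesses was not tested. For Fth1 they were Txnrd1, a thioredoxin reductase (Pearson r 0.988), Dlg1 (0.969) and Kdm6a (0.964). Ftl1 was followed by Htatip2 (0.985), Ninl (0.97) and Git2 (0.961). Ncoa4 was followed by the exporter Abcg2 and the biliverdin reductase Blvrb (0.993 each) and by the red cell membrane protein Epb4.2 (0.99). The closest to Slc40a1 were Fis1 (0.993), Slc22a4 (0.984) and Isca1 (0.974). Fbxl5 was most like Angel2 (0.996), Sart3 (0.981) and Ube4b (0.978). No gene was among the closest of more than 1 member.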

How the data were processed

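RNA of splenic Ter119+ cells was sequenced in 6 libraries. The authors deposited 1 table of raw read counts per gene symbol. STAR 2.5, HTSeq, DESeq2 and mm10 are named, per the submitters' processing notes, with no role; no annotation or strand setting is named in the sources used here, so overlapping genes on opposite strands could share reads, as Fbxl5 and Bst1 overlap in GENCODE M21. Of 35275 rows, 27 whose names had become dates (0.34% to 0.383% of reads) were left out, and 122 rows sharing 52 symbols were summed.

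KO was compared with WT on these counts by edgeR 4.0.16 under R 4.3.3 (filterByExpr, TMM, robust quasi-likelihood F test, no covariate) and checked on simulated data. The labels do not say that libraries are separate animals, so p-values measure the spread between libraries. It may be technical in part, but KO replicate 3 differs from the other KO libraries in Xist and Y genes, so these were not all 1 animal. The closest libraries differed by a chi-square of 22.1 per gene, above sampling noise. DESeq2 1.42.0, limma-voom (limma 3.58.1), other scalings and filters, a replicate block and libraries left out were alternatives. Sequences were aligned with Biopython 1.88. Members, lists and alternatives were chosen with earlier results of these data known. Named by rule are the 5 members, Nfe2l2, Nqo1 and, of each list, the 3 genes of smallest p and the most abundant one. The 3 genes most like each member and ferritin copies are also named by rule. Other genes, such as Marco and other single markers, are named outside this rule. One gene searched for an IRE is not reported here.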

Additional observations from a re-analysis of the deposited data

How the results depend on the processing

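Every log2 change of the 5 genes kept its direction in all alternatives, with ranges of -1.09 to -0.33 for Fth1, -1.42 to -0.38 for Ftl1, -0.84 to -0.57 for Ncoa4, -0.90 to -0.51 for Slc40a1 and 0.23 to 0.41 for Fbxl5. The median over all genes was 0.02 by TMM and 0.15 by library totals. Relative to that median, Ncoa4 stood at -0.73 by totals and -0.72 by TMM, and Fbxl5 at 0.26 by both. By DESeq2 3 members were called lower, Fth1 (log2 -0.81), Ncoa4 (log2 -0.73) and Slc40a1 (log2 -0.71), and with no filter edgeR called 1, Ncoa4 (log2 -0.71). The cause was not tested.

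Genes called over the whole table numbered 3 in the main edgeR fit, 10 with DESeq2 size factors, 8 with upper-quartile scaling, 33 by library totals, 385 by DESeq2, 0 by limma-voom (1681 at an unadjusted p under 0.05), 228 with no filter, 9 with a filter of 1 CPM in 3 libraries, 6 for KO replicate 3 alone and 0 to 14 without single libraries (0 when WT replicate 2 was left out, with 1338 at an unadjusted p under 0.05, and 1, 12 and 14 when KO replicate 2, 1 or 3 was). List calls, 0 in the main fit, were by DESeq2 6 in iron uptake, 2 in iron sensing, 1 in the Fbxl5 ligase list, 4 in ferritinophagy machinery, 4 in heme degradation and 3 in other IRE mRNAs. All of these were lower, where DESeq2 called 3.6% of the genes it adjusted lower and 1.13% higher. With no filter the list calls were 4, 1, 0, 1, 3 and 2, where 168 of 21680 genes were called lower and 60 higher. Iron sensing had 1 call with DESeq2 size factors, upper-quartile scaling, library totals and the 1 CPM filter, and 0 to 1 without single libraries, as had the other IRE mRNAs.

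Deviations of same-numbered WT and KO libraries correlated at 0.11, 0.06 and 0.01, and those of differently numbered ones at -0.11 to 0.05. Whether a shared replicate number marks a pair cannot be told from values this small. With the replicate number as a block 9 genes were called over the table, 1 in iron sensing and 0 of the members. The within-library ratios turned. Fth1 over Ftl1 was -0.12 with the light chain rows summed and -0.12 to 0.66 without single libraries, Ncoa4 over Fth1 was -0.35 for KO replicate 3 alone and -0.09 to 0.33 without single libraries, and Slc40a1 over Tfrc was -0.13 to 0.27. With 3 libraries a group, exact tests of a ratio cannot pass 0.05.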

Other observations

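Among the macrophage markers, the scavenger receptor Marco stood at 62.3, 23.2 and 10.4 CPM in WT replicates 1, 2 and 3 and at 391, 44.1 and 11.3 CPM in KO replicates 1, 2 and 3. Its highest value was in KO replicate 1, the library with the lowest Ftl1 level and the highest Ftl2 level.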
